A study of Mus musculus with 8 samples.

Results

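Krt19 and 9 other genes of embryonic surface epithelium were followed in mouse embryos with and without Arid3b. The set holds the simple keratins Krt7, Krt8, Krt18 and Krt19, the transcription factors Tfap2c, Trp63, Grhl2 and Grhl3, and the junction proteins Cdh1 and Cldn6. The genes were chosen by name, with earlier results of the comparison of Arid3b-null and wild-type embryos known, among them the higher signals of Krt19 and Tfap2c in null pools. Differences between the genotypes are therefore given for the 10 genes as descriptions, without p-values. Array probes matched 9 of the 10 genes, with 15 probes in all, and no probe was matched to Grhl3, which was not analysed here. All 9 genes were among the 17099 genes tested on the arrays.

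The arrays held total RNA of whole embryos at embryonic day 9.0, from 4 pools of Arid3b-null embryos and 4 pools of wild-type embryos, with 3 to 4 embryos in each pool. Arid3b is a nuclear protein that binds AT-rich DNA through its ARID domain. The labels call the mutants Arid3b-null, with no allele or strain named, and do not say whether the pools came from separate litters. Each pool was hybridised to a 1-colour array, which reads the brightness of a Cy3-labelled copy of the RNA on 60-base probes, and the tables of all spots were the starting point. Values are log2 signals relative to the 75th percentile of the same array, so that 0 is a bright but not extreme probe and a difference of 1 is a doubling. Levels of different probes cannot be ranked on such arrays, and comparisons are made between pools for a probe at a time.

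Simple epithelia, the single layers of cells that cover the early embryo and line its tubes, build their intermediate filaments from pairs of a type II and a type I keratin. Krt7 and Krt8 are of type II, and Krt18 and Krt19 are of type I. In the surface ectoderm the AP-2 factor Tfap2c and the p53 relative Trp63 act early in the programme that leads to epidermis, while the grainyhead factors Grhl2 and Grhl3 are known for their part in epithelial junctions and in closure of the neural tube. Cdh1 (E-cadherin) holds epithelial cells together at adherens junctions, and Cldn6 is a tight junction protein of early embryonic epithelia. None of these genes is special to surface ectoderm, since trophoblast, gut, yolk sac and other epithelia use several of them too. In whole embryos a difference in signal may come from a different number of cells of a type or from a different amount of RNA per cell, and these cannot be told apart.

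The 75th percentile of the processed intensity lay between 1280 and 1703 over the 8 arrays, each array had 59.9% to 64.1% of its 41174 probes well above background, and 0 probes were saturated. Arid3b itself had log2 values of 1.89, 1.83, 1.85 and 2.48 in null pools, against 3.47, 3.29, 3.39 and 3.31 in wild-type pools, a difference of -1.35 ± 0.15 (SE). Signal for Arid3b thus remained in all null pools and was highest in null pool 4, and the sources used here do not say whether its probes fall within the deletion. Pools 1 and 2 of each group lay on 1 slide and pools 3 and 4 on another. Null pools took positions 3 and 4 and wild-type pools positions 1 and 2 on both slides, so that position and genotype cannot be told apart. Epcam, another gene of embryonic epithelia, had 0.58, 0.84, 1.11 and 1.16 in null pools and 0.79, 0.76, 0.72 and 1.08 in wild-type pools, so an epithelial marker outside the set was well measured in every pool.

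The Krt19 probe is shown because the clearest difference in the set rests on this 1 sequence, and 4 further probes are shown because each is a further reading of its gene. All 5 are printed 5′ to 3′ as they stand in the array files, with positions on mouse build mm7.
Krt19 (A_51_P356642): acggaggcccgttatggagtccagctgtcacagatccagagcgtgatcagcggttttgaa
Krt7 (A_52_P410685): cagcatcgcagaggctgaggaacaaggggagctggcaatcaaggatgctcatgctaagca
Trp63 (A_52_P17264): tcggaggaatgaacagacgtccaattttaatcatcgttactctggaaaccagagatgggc
Grhl2 (A_51_P408821): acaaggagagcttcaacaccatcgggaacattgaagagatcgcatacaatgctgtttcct
Grhl2 (A_52_P373982): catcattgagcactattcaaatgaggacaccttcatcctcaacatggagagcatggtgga
The Krt19 probe lies at chr11:100250117-100250176 on the minus strand, and the Krt7 probe at chr15:101409444-101409503 on the plus strand. The 2 Grhl2 probes lie at chr15:37420358-37420417 and chr15:37471448-37471507 on the plus strand. The Trp63 probe is placed at chr16:25526842-25527619 on the plus strand, a span of 778 bases for a 60-base probe, so its match to the genome is split. Each of the 5 can be read through in at least 1 frame without a stop codon.

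Of the 9 genes, 2 passed an adjusted p under 0.05 between genotypes in limma with Benjamini-Hochberg adjustment over all 17099 genes, against 4.20% of all genes in either direction and 2.85% higher in null. These 2 were Krt19 and Tfap2c, both higher in null pools, and since earlier results of the same contrast guided the choice of the set, nothing is read from this count. The other 7 did not pass. A fit with the pool number as a block took same-numbered pools as pairs, a choice made from these data because their deviations correlated. In this fit 5 of the 9 passed (Krt8, Krt18, Krt19, Tfap2c and Trp63), against 13.7% of all genes and 7.78% higher in null. With the slide as a block, 3 passed (Krt18, Krt19 and Tfap2c), against 8.01% of all genes and 4.71% higher in null. All members that passed a blocked fit were higher in null.

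Krt19, a type I keratin of simple epithelia, had the largest difference of the set. Its log2 values were 2.95, 3.41, 2.89 and 2.73 in null pools, against 1.84, 1.78, 1.93 and 1.82 in wild-type pools. The wild-type pools lay close together, every null pool was above every wild-type pool, and null pool 2 was the highest of all. The means were 2.99 ± 0.29 in null and 1.84 ± 0.06 in wild type (SD, n = 4 each), a difference of 1.15 ± 0.14 (SE) or 2.22-fold. By same-numbered pools the differences were 1.10, 1.63, 0.97 and 0.90. Without null pool 2, or without any other single pool, the difference stayed between 1.01 and 1.24 and past the threshold. With normexp background correction, a model-based way to subtract the background, the difference was 1.16 and did not pass, and 0 of all 17099 genes passed in that fit.

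Krt18, the usual type I partner of Krt8, had log2 values of 5.68, 5.86, 5.71 and 5.63 in null pools, against 5.39, 5.56, 5.26 and 5.38 in wild-type pools. The groups did not overlap, but the lowest null pool and the highest wild-type pool were close. The difference was 0.32 ± 0.09 (SE), or 1.25-fold, with same-numbered differences of 0.29, 0.30, 0.45 and 0.25. Krt18 did not pass without a block and passed with either block. No single pool left out brought it past the threshold, and the difference then lay between 0.28 and 0.38.

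Krt8, the type II keratin of simple epithelia, was read by 2 probes. The brighter one had 5.34, 5.80, 5.31 and 5.38 in null pools, against 5.13, 5.49, 5.05 and 5.11 in wild-type pools, and the other had 5.17, 5.73, 5.05 and 5.07 in null pools, against 4.93, 5.35, 4.68 and 4.89 in wild-type pools. Pool 2 stood out upwards in both groups on both probes, so that the groups overlapped although each null pool was above the wild-type pool of the same number. The differences were 0.26 ± 0.14 and 0.29 ± 0.19 (SE) on the 2 probes. On the brighter probe the same-numbered differences were 0.21, 0.31, 0.26 and 0.26. Their spread was much smaller than that among the pools of a group, which had an SD of 0.23 in null and 0.20 in wild type.

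Krt7, a type II keratin of simple and glandular epithelia, had 2.98, 3.48, 3.21 and 3.12 in null pools, against 2.94, 3.23, 2.83 and 3.08 in wild-type pools. The groups overlapped, and pool 2 was again the highest in both. The difference was 0.18 ± 0.13 (SE) on this probe. On the second probe, printed above, the values were 0.00, 0.51, 0.13 and 0.17 in null pools, against 0.00, 0.22, -0.06 and 0.05 in wild-type pools, a difference of 0.15 ± 0.12 (SE). Both probes thus gave a small difference of the same direction and about the size of its error, and Krt7 passed in neither blocked fit.

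**Figure D1:**
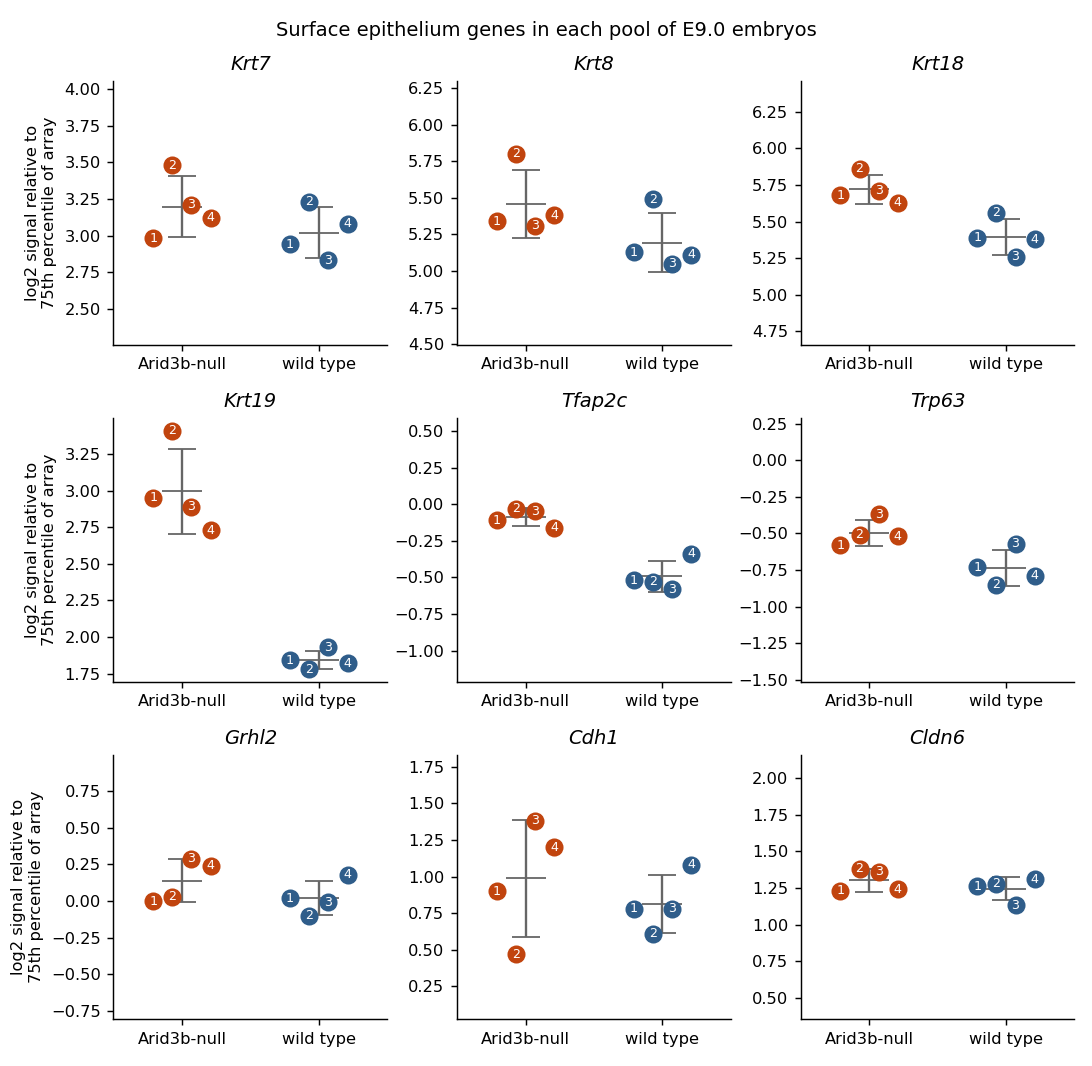
Log2 signal relative to the 75th percentile of the array (vertical axis of each panel) for the probe that stands for each of the 9 measured genes, with points for the 4 Arid3b-null pools left of the 4 wild-type pools, numbered by pool, horizontal lines for the group means and bars for 1 SD on each side. Krt19, Krt18 and Tfap2c are the 3 genes whose groups do not overlap, and pool 2 is the highest in both groups for Krt7, Krt8 and Krt18.

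Tfap2c, an AP-2 transcription factor of surface ectoderm, trophoblast and germ cells, had log2 values of -0.11, -0.03, -0.05 and -0.16 in null pools, against -0.52, -0.53, -0.58 and -0.34 in wild-type pools. The groups did not overlap, and wild-type pool 4 lay nearest to the null pools. The difference was 0.41 ± 0.08 (SE), or 1.33-fold, with same-numbered differences of 0.41, 0.50, 0.53 and 0.18. Leaving out any pool except null pool 4 took Tfap2c off the called genes, with the difference between 0.38 and 0.46 throughout.

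Trp63, a p53 relative required for stratified epithelia, had -0.58, -0.51, -0.37 and -0.52 in null pools, against -0.73, -0.85, -0.57 and -0.79 in wild-type pools on its brightest probe. The groups overlapped by a narrow margin, at null pool 1 and wild-type pool 3. The difference was 0.24 ± 0.09 (SE), with same-numbered differences of 0.15, 0.35, 0.21 and 0.27. The split-match probe of Trp63 had -5.45, -5.50, -5.72 and -5.49 in null pools, against -5.13, -5.32, -5.52 and -4.22 in wild-type pools, a difference of -0.49 ± 0.26 (SE). It was well above background in 2 of 4 null pools and 4 of 4 wild-type pools, and it ran opposite to the brightest probe, with the widest gap at wild-type pool 4. The remaining Trp63 probe was not well above background on any array. With the mean of both usable probes in place of the brightest, the Trp63 difference was -0.12, so that its direction depends on which probe is read.

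Grhl2, a grainyhead factor of epithelial junction genes, had 0.00, 0.03, 0.29 and 0.24 in null pools, against 0.02, -0.10, -0.01 and 0.18 in wild-type pools on its brightest probe. The groups overlapped, and the difference of 0.12 ± 0.10 (SE) was about the size of its error. The second Grhl2 probe had -5.10, -4.46, -4.87 and -4.19 in null pools, against -5.09, -5.02, -4.82 and -4.95 in wild-type pools, with a difference of 0.32 ± 0.19 (SE) carried by null pools 2 and 4. The remaining Grhl2 probe was well above background in null pool 3 alone, at -3.22, and in 0 of 4 wild-type pools, so it gave no usable difference.

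Cdh1 was read by a single probe with 10 spots on each array. Its values were 0.90, 0.47, 1.38 and 1.20 in null pools, against 0.78, 0.61, 0.78 and 1.08 in wild-type pools. The groups overlapped widely, and pool 2 was the lowest in both, unlike in the keratins. The difference was 0.17 ± 0.20 (SE), and by same-numbered pools it was 0.12, -0.14, 0.60 and 0.12. Cldn6 had 1.23, 1.38, 1.36 and 1.24 in null pools, against 1.26, 1.28, 1.13 and 1.31 in wild-type pools. Its groups overlapped throughout, and its difference of 0.06 ± 0.08 (SE) became -0.03 with arrays scaled on their median and -0.01 with no scaling.

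**Figure D2:**
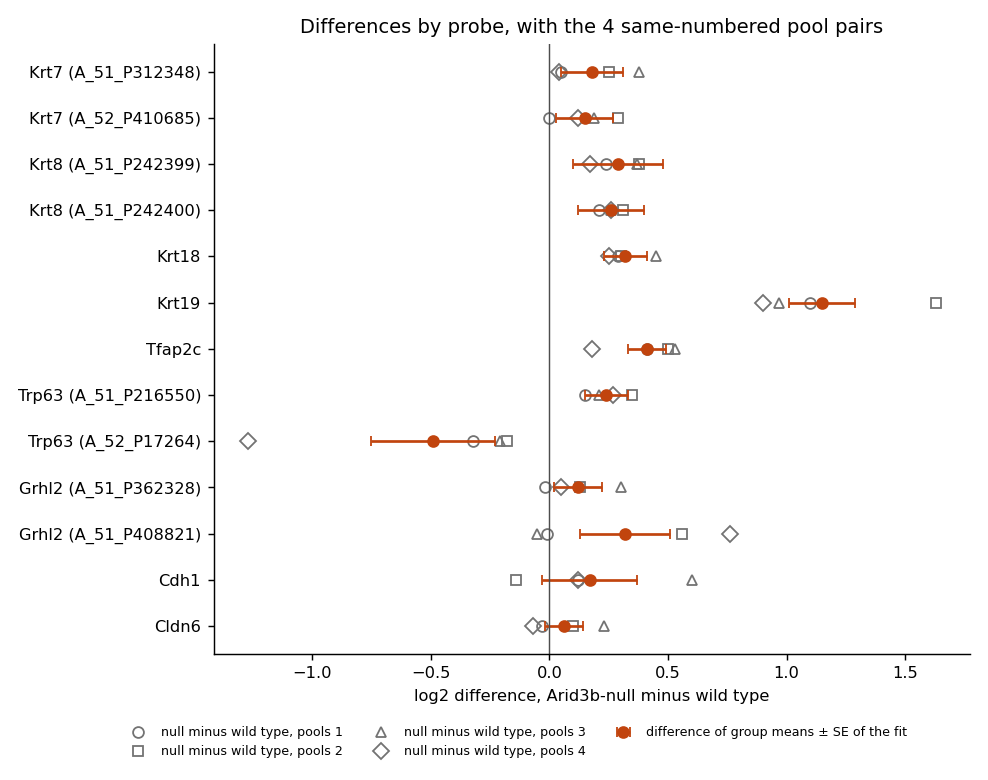
Difference in log2 signal, Arid3b-null minus wild type (horizontal axis), for the 13 probes well above background on at least 4 arrays, with open symbols for the same-numbered pool pairs 1 to 4 and filled points with bars for the difference of group means ± SE of the limma fit. The 2 probes of Krt7 and of Krt8 lie close together, and the 2 probes of Trp63 lie on opposite sides of 0.

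Taken by counts on the brightest probe of each gene, 9 of 9 genes had the higher mean in null pools, where 48.7% of all genes tested did. Trp63 was lower in null, at -0.12, with the mean of its usable probes. The groups did not overlap, with null above wild type, for 3 of the 9, against 8.08% of all genes. In 6 of the 9 every null pool was above the wild-type pool of the same number, against 22.4% of all genes. The median difference was 0.24 over the 9 genes and -0.01 over all genes tested. These counts share their contrast with the choice of the set and describe it only. With arrays scaled on their median, the median over all genes was -0.10 and that of the 9 genes 0.15, with 8 of 9 higher in null and Cldn6 the exception.

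The slides gave a contrast that the choice of the genes did not use. With genotype and slide as terms in limma, 0 of 9 genes differed between slide 2 (pools 3 and 4) and slide 1 (pools 1 and 2) at an adjusted p under 0.05, against 12.4% of all genes, and 2 had an unadjusted p under 0.05. These were Cdh1, with a mean of 1.11 on slide 2 and 0.69 on slide 1, a difference of 0.42 ± 0.14 (SE, adjusted p = 0.0967), and Grhl2, with 0.17 on slide 2 and -0.01 on slide 1, a difference of 0.19 ± 0.07 (SE, adjusted p = 0.143). Cdh1 was higher on slide 2 in both genotypes by its group means, and the keratins Krt7, Krt8, Krt18 and Krt19 had slide differences of -0.10, -0.23, -0.13 and -0.15, none of which passed. The 2 slides hold different pools, so slide and pool cannot be told apart.

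The genotype difference was also taken within each slide. For Krt19 it was 1.37 on slide 1 and 0.93 on slide 2, and for Tfap2c 0.46 on slide 1 and 0.36 on slide 2. Krt8 gave 0.26 on both slides, Krt18 gave 0.29 on slide 1 and 0.35 on slide 2, and Trp63 gave 0.25 on slide 1 and 0.24 on slide 2. Krt7 gave 0.15 on slide 1 and 0.21 on slide 2, Grhl2 gave 0.06 on slide 1 and 0.18 on slide 2, and Cldn6 gave 0.04 on slide 1 and 0.08 on slide 2. These values are parts of the contrast that guided the choice of the set, so nothing is read from a shared direction. Cdh1, with -0.01 on slide 1 and 0.36 on slide 2, was the gene whose sign differed. In limma with a genotype by slide interaction, 0 of 9 genes passed, with 0 at an unadjusted p under 0.05, against 0.00585% of all genes, which was 1 gene. The interaction for Krt19, slide 2 minus slide 1, was -0.43 ± 0.23 (SE), and did not pass.

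The keratins shared a pattern among pools of the same genotype. Taken as deviations from the group mean, null pool 2 was at 0.28 for Krt7, 0.35 for Krt8 and 0.14 for Krt18, and wild-type pool 2 was at 0.21, 0.30 and 0.16 for the same genes. Pool 2 was the highest of its group for all 3 genes in both genotypes. Krt19 shared this in null pool 2, at 0.42, and did not share it in wild-type pool 2, at -0.06. Cdh1 deviated the other way, with -0.52 in null pool 2 and -0.20 in wild-type pool 2. Array depth moved with this pattern, since pool 2 also had the lowest 75th percentile of its group, 1280 in null and 1339 in wild type. Its part in the pattern was not tested.

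**Figure D3:**
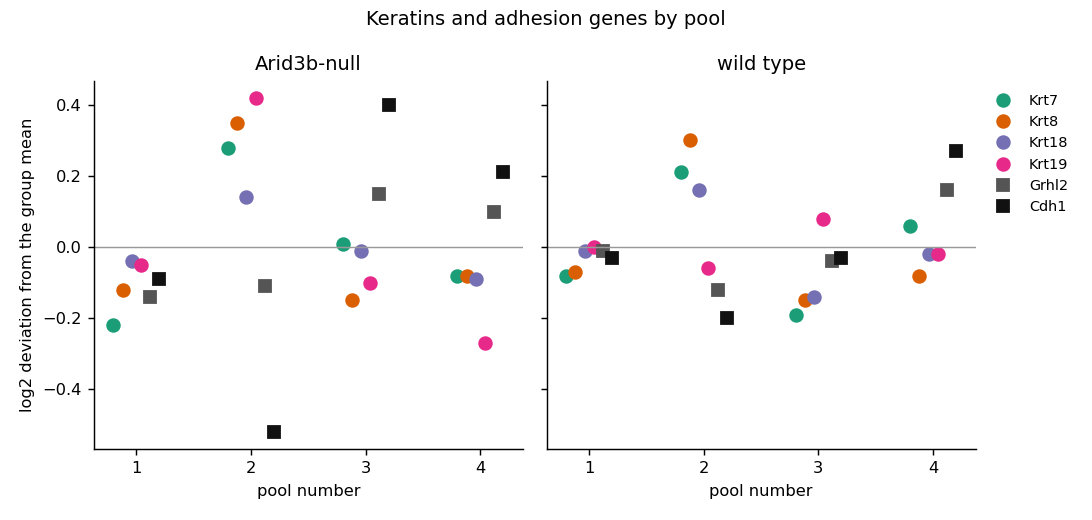
Deviation of each pool from the mean of its own group in log2 units (vertical axis) by pool number (horizontal axis) for the 4 keratins, Grhl2 and Cdh1, with Arid3b-null in the left panel and wild type in the right. Krt7, Krt8 and Krt18 are above their group mean in pool 2 of both groups, and Cdh1 is below it in pool 2 of both groups.

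The promoters of Krt7, Krt8 and Krt18 are shown because these 3 genes moved together among the pools. They run from 250 bases before to 50 after the gene's start and come from RefSeq on GRCm38.p6. The table of promoters used here matched 5 of the 10 genes, these 3, Cldn6 and Grhl3, and the promoters of Krt19, Tfap2c, Trp63, Grhl2 and Cdh1 were not analysed here. Capitals mark the E-box CACCTG or its reverse complement, which was put in capitals after it had been seen in all 5.
Krt7: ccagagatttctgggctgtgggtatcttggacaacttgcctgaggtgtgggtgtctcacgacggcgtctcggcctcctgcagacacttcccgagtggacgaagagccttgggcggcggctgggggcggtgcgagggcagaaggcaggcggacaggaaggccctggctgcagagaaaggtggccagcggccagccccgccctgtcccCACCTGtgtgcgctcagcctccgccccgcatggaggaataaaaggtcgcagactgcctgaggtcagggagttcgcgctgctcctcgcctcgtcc
Krt8: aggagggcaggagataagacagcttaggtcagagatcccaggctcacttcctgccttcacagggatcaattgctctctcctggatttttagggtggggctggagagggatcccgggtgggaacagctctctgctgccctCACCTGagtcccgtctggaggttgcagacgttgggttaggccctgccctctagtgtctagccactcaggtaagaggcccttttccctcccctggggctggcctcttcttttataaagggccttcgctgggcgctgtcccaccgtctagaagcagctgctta
Krt18: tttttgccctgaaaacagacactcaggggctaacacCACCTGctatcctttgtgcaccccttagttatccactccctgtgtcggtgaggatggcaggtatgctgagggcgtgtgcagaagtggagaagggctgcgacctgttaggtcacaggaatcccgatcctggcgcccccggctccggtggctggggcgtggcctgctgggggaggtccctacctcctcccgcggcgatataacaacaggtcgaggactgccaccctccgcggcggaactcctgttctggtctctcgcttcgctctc
All 3 genes lie on chromosome 15, Krt7 at chr15:101412153-101412452 and Krt18 at chr15:102027966-102028265 on the plus strand, and Krt8 at chr15:102004293-102004592 on the minus strand. Counted in bases from the gene's start, the match begins at -44 in Krt7, at -111 in Krt8 and at -214 in Krt18. CACCTG was present on either strand in 5 of 5 promoters, against 20.2% of all 32851 promoters. A match in letters is not a bound site.

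A further 7 motifs were searched on both strands of the same 5 promoters. The GC box GGGCGG was found in 3 (Grhl3, Krt7 and Cldn6), against 35.7% of all promoters, and the AP-2 palindrome GCCNNNGGC in 2 (Krt7 and Krt18), against 16.6%. TATAAA was found in Krt8, against 13.6% of all promoters, and CCAAT in Grhl3, against 37.4%. The grainyhead sequences AACCGGTT and AACCNGTT, of which the second includes the first, and the AP-1 sequence TGANTCA were not found in these 5 windows. They were present in 0.146%, 2.09% and 7.81% of all promoters. The Krt7 promoter had 66.3% G and C, that of Krt18 61.3% and that of Krt8 58.0%, where the median of all promoters was 52.7%.

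Other epithelial genes were taken in 4 lists by role, written with earlier results of these data known. The adjusted p-values given for genes of these and the later lists are therefore descriptions too. Of 72 genes named in them, 63 were tested, 2 were higher in null pools at an adjusted p under 0.05, 0 were lower and 61 did not pass, where 2.85% of all genes were called higher and 1.35% lower, so the share called was near that of all genes. At an unadjusted p under 0.05 in limma, 21 were higher and 2 were lower, against 10.6% of all genes higher and 10.1% lower. With the pool number as a block 8 were higher and 0 lower, against 7.78% of all genes higher. The mean was higher in null for 48 of the 63 and the median difference was 0.16. With arrays scaled on their median these became 37 of 63 and 0.07, and with normexp background correction 39 of 63 and 0.05, where the medians of all genes were -0.10 and -0.07.

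Tjp3, a scaffold protein of tight junctions also called ZO-3, had the largest difference among the called epithelial genes. Its values were 0.24, 0.36, 0.37 and 0.16 in null pools, against -0.46, -0.45, -0.43 and -0.47 in wild-type pools. The groups were far apart and the wild-type pools nearly level. The difference was 0.74 ± 0.07 (SE), or 1.66-fold, with an adjusted p = 0.00427 by limma, and it passed with each of the 8 pools left out in turn and did not pass with normexp background correction. Of 19 tested adhesion and tight junction genes 1 was called (Tjp3) and 18 were not, and the block added Cldn3, a tight junction claudin. The list had a median of 0.22 and a summed linear signal of 60.4 to 71.3 in null pools against 60.1 to 64.9 in wild-type pools, in units of the 75th percentile. Lsr alone made up 40.7% to 47.0% of these sums, with a difference of 0.02.

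Klf5, a zinc finger factor of proliferating epithelia, was the called gene among 18 tested regulators of surface ectoderm and epithelia. It had -1.42, -1.74, -1.71 and -1.85 in null pools, against -2.09, -2.23, -2.07 and -2.22 in wild-type pools, with no overlap. The difference was 0.48 ± 0.10 (SE), or 1.39-fold, with an adjusted p = 0.0445 by limma, and leaving out any pool except null pool 4 took it off the called genes. With the pool number as a block Tfap2b, an AP-2 factor, was called too. Over the 18 regulators the median difference was 0.14. The summed linear signal was 15.8 to 18.8 in null pools against 14.7 to 16.7 in wild-type pools, so the groups overlapped.

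Of 10 tested keratins outside the set, 0 passed (2 higher and 1 lower at an unadjusted p under 0.05), with a median difference of 0.12 and summed signals of 4.00 to 5.80 in null pools against 3.89 to 6.03 in wild-type pools. The smallest p was that of Krt13, a keratin of stratified internal epithelia, at 0.37 ± 0.14 (SE, adjusted p = 0.172 by limma), and Krt13 passed with the pool number as a block. Krt10 ran the other way by the same amount, at -0.37 ± 0.14 (SE, adjusted p = 0.179 by limma). With the slide as a block both were called, Krt13 higher and Krt10 lower in null pools. Of 16 tested epithelial proteases, inhibitors, trafficking and surface genes, 0 passed (5 higher and 1 lower at an unadjusted p under 0.05), with a median of 0.23 and summed signals of 47.9 to 49.8 in null pools against 46.9 to 51.8 in wild-type pools. The smallest p there was that of Cdcp1, a transmembrane protein, at 0.34 ± 0.08 (SE, adjusted p = 0.065 by limma). With the pool number as a block 3 genes of this list were called, Cdcp1, Rab25 and Anxa8, all higher in null pools. Sfn alone made up 54.8% to 59.7% of the summed signals of this list.

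Among 8 mesenchymal genes, 1 passed. Snai2, a zinc finger repressor of epithelial genes in neural crest and other mesenchyme, had 2.33, 2.54, 2.48 and 2.54 in null pools, against 2.03, 2.07, 2.17 and 1.91 in wild-type pools. It was higher in every null pool than in any wild-type pool, by 0.43 ± 0.09 (SE), or 1.35-fold, with an adjusted p = 0.0377 by limma. Leaving out any pool except null pool 1 took it off the called genes. The summed signal of the 8 genes was 63.4 to 68.7 in null pools against 57.9 to 61.0 in wild-type pools, with a median difference of 0.09. The sums did not overlap between the groups, but Vim alone made up 58.5% to 65.3% of them, with a difference of 0.12 and an adjusted p = 0.408 by limma, so they mainly follow 1 bright probe.

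Markers of other tissues that make simple keratins or Tfap2c were read beside the set. Of 6 tested trophoblast markers 0 passed (2 higher and 0 lower at an unadjusted p under 0.05), with summed signals of 1.91 to 3.55 in null pools against 1.90 to 3.33 in wild-type pools. Of their list, 5 genes were not well above background on enough arrays (Gcm1, Tpbpa, Ctsq, Eomes and Psg17) and Prl2c2 had no matched probe. Ascl2 had the smallest p, at 0.54 ± 0.20 (SE, adjusted p = 0.173 by limma). Of 10 yolk sac endoderm markers 0 passed (0 at an unadjusted p under 0.05), with sums of 11.9 to 22.3 in null pools against 12.3 to 22.5 in wild-type pools, and the smallest p was that of Rbp4, the plasma carrier of retinol, at 0.30 ± 0.20 (SE, adjusted p = 0.457 by limma). The summed signals of both lists thus overlapped over almost their whole range. Cdx2 alone made up 52.6% to 68.3% of the trophoblast sums, and Rbp4 38.7% to 55.0% of the yolk sac sums. Each sum thus follows 1 bright probe to a large part and is not a measure of the amount of the tissue.

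At an unadjusted p under 0.05 in limma, 3 of 7 tested gut endoderm markers were higher in null pools and 1 was lower. After adjustment 2 passed, both higher in null pools. They were Sox17, an endoderm and endothelial factor, at 0.32 ± 0.07 (SE, adjusted p = 0.0431), and Hhex, a homeobox gene of liver and foregut, at 0.41 ± 0.09 (SE, adjusted p = 0.0495), both by limma and both off the called genes with any 1 of the 8 pools left out. The list median was -0.14, opposite to these 2 genes, and the sums were 6.89 to 7.99 in null pools against 7.23 to 7.73 in wild-type pools. Foxa2 alone made up 54.5% to 65.3% of these sums. Of 5 tested mesothelium and epicardium markers 0 passed (1 higher at an unadjusted p under 0.05), with sums of 1.51 to 1.74 in null pools against 1.32 to 1.59 in wild-type pools. Wt1 had the smallest p, at 0.51 ± 0.16 (SE, adjusted p = 0.117 by limma), and with the pool number as a block Wt1 and Upk3b passed, both higher in null pools. Of 4 tested notochord markers 1 passed, Foxj1, a factor of motile cilia, which fell by 0.65 on the log2 scale (SE 0.10, adjusted p = 0.0158 by limma), with sums of 0.426 to 0.570 in null pools against 0.473 to 0.650 in wild-type pools.

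Of 5 tested germ cell markers 1 passed, Dppa3, which was lower in null pools (adjusted p = 0.0285 by limma) and well above background in 1 of 4 null pools and 4 of 4 wild-type pools, so no size is given. It was called without null pool 4 or wild-type pool 3 and lost its call with any of the other 6 pools left out. The germ cell sums were 1.94 to 2.45 in null pools against 1.52 to 1.88 in wild-type pools. They did not overlap and ran opposite to Dppa3, and Kit alone made up 55.0% to 65.9% of them, with a difference of 0.31 and an adjusted p = 0.302 by limma. Prdm1, at 0.38 ± 0.10 (SE, adjusted p = 0.0757 by limma), passed with the pool number as a block. The part of these tissues in the differences of the keratins and Tfap2c was not tested. Foxj1 lost its call without null pool 3, wild-type pool 1 or wild-type pool 4, and in these 3 fits 0 of the 37 marker genes tested were called by limma, with 8, 7 and 10 at an unadjusted p under 0.05.

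**Figure D4:**
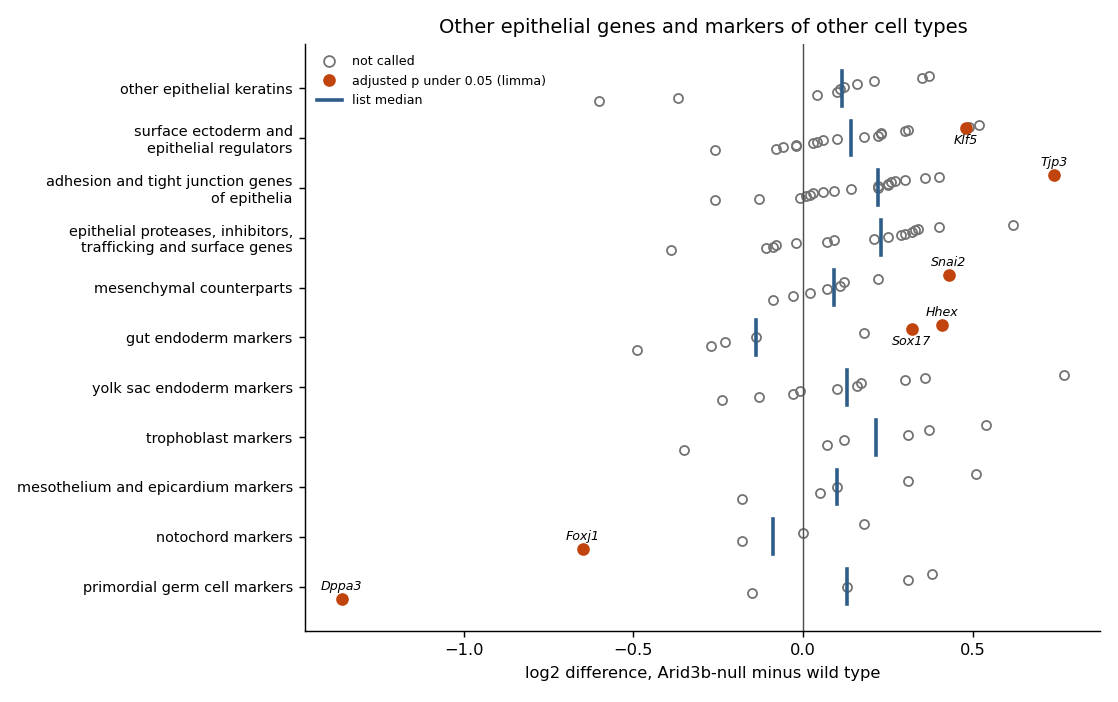
Difference in log2 signal, Arid3b-null minus wild type (horizontal axis), of the tested genes in each list (rows), with filled points for genes at an adjusted p under 0.05 in limma and a vertical bar for the list median. Tjp3, Klf5, Snai2, Hhex and Sox17 are called to the right of 0, and Foxj1 and Dppa3 to the left, where Dppa3 was well above background in 1 of 4 null pools.

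The genes most like Krt19 across the 8 arrays were sought among 17001 genes by Pearson's r, as a likeness without a p. All 8 arrays enter, so that much of each r is the difference between the genotypes, and r was therefore also taken on deviations from the group means. Krt19 deviated by -0.06 to 0.08 in wild-type pools, against 0.42 in null pool 2 and -0.27 in null pool 4. The r on deviations thus mainly follows these null pools. Tmc4, a transmembrane channel-like gene, had r = 0.999 and 0.997 on deviations, with -1.76, -1.45, -1.81 and -1.88 in null pools against -2.39, -2.43, -2.34 and -2.40 in wild-type pools. Its order of null pools was that of Krt19 at the top, with pool 2 highest and pool 4 lowest.

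The next in order were Nrn1, a secreted neuronal growth protein, at r = 0.997 and 0.970 on deviations, Ndrg2, at 0.997 and 0.976, Pygl, the liver glycogen phosphorylase, at 0.995 and 0.939, and Pik3ip1, a regulator of PI3-kinase, at 0.993 and 0.938. Their differences, null minus wild type, were 2.61 for Nrn1, 1.71 for Ndrg2, 1.10 for Pygl and 1.45 for Pik3ip1. In each of the 4, pool 2 was the highest null pool and pool 4 the lowest, as for Krt19. Since Tmc4 and these 4 genes were picked by their r with Krt19, a shared order of null pools follows from the choice.

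The other genes of the set were less like Krt19. Tfap2c had r = 0.926, Krt18 0.886, Trp63 0.780, Krt8 0.684, Krt7 0.577, Cldn6 0.457, Grhl2 0.307 and Cdh1 0.069. On deviations from the group means r was 0.566 for Krt8, 0.469 for Krt7, 0.445 for Krt18, 0.329 for Cldn6, 0.286 for Tfap2c, 0.113 for Trp63, -0.467 for Grhl2 and -0.763 for Cdh1. By r over all 8 arrays Tfap2c was the nearest gene of the set, at rank 414 of the 17001 genes, and on deviations Krt8 was the nearest.

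**Figure D5:**
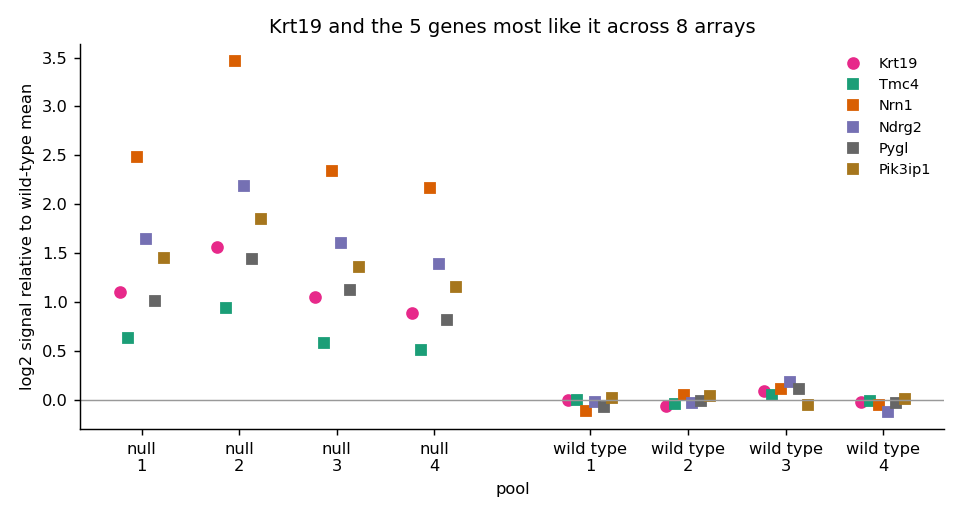
Log2 signal relative to the wild-type mean of the same gene (vertical axis) for Krt19 and the 5 genes most like it (Tmc4, Nrn1, Ndrg2, Pygl and Pik3ip1) by pool (horizontal axis), Arid3b-null pools left of wild-type pools. In Krt19 and each of the other 5 genes null pool 2 is the highest pool, and the wild-type pools are nearly level. The 5 genes were picked by r over these same values.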

How the data were processed

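Total RNA of 8 pools of whole embryos was measured on 1-colour arrays. Per the file headers, Feature Extraction 9.5.3.1 made the deposited intensity of each spot, a Cy3 brightness after background subtraction, and annotated the probes on mm7. The deposited table of log2 values, for which no processing is stated in these sources, and the deposited mean and background intensities served only as alternatives.

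Control and flagged spots (87 to 175 per array) were left out, log2 intensities were averaged per probe, and each array's 75th percentile over probes was subtracted. A probe was kept where 4 or more of the 8 arrays had it well above background. The brightest kept probe represented its gene, provided each group had 2 or more values. Of 41174 probes, 22951 were named by accession, 6659 by symbol, 3109 by an older name and 8455 as in the files. The genotypes were tested in limma 3.58.1 under R 4.3.3 (lmFit, eBayes, genotype only), with Benjamini-Hochberg adjustment over 17099 genes and a threshold of 0.05. Separate litters are not stated, so p-values reflect only the spread among pools, which may be technical. The genotype fit was tested on simulated gene values of 17002 genes, where 34.0%, 69.0% and 86.0% of genes changed 1.5-fold, 2-fold and 4-fold were recovered. The steps before the fit were not simulated. The simulated spread was independent between pools, unlike that of the real same-numbered pools, so recovery in the real data may differ. The number of arrays limits the precision.

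The deviations of same-numbered pools from their group means correlated across genes at 0.557, 0.635, 0.523 and 0.426 for numbers 1 to 4, so the label numbers were taken as pairs. The numbers are nested in the slides. No correlation was computed between pools of different numbers on the same slide, so the part of the slide in the 4 values given was not tested. The labels do not state a pairing.

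Members and gene lists were chosen with earlier results of these data known. The genes named are the 10 members, Arid3b, up to 3 called genes per list or else the gene with the smallest p, and the 5 genes most like Krt19. Epcam was named as a check of the tissue. List genes called only with the pool number as a block, and Vim, Kit, Cdx2, Foxa2, Sfn, Lsr and Krt10, were named after their values were seen. Alternatives were other scalings, background correction, filters, probe summaries, the deposited table, slide or replicate blocks, and each pool left out. The percentile was first taken over all spots and changed to probes after the files were seen, so the percentile over spots is an alternative chosen after seeing the data.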

Additional observations from a re-analysis of the deposited data

Results flagged for a closer look

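The Krt8 signal of null pool 2 lay apart from the other null pools on both probes. On the brighter probe it was 5.80, against 5.31 to 5.38 in the other 3 null pools, and on the second probe it was 5.73, against 5.05 to 5.17. The gap to the nearest pool was 0.867 and 0.830 of the range of the 4 null pools, above Dixon's critical value for 4 samples. These were 2 of 30 groups checked, and chance alone places about 1 in 20 groups past this value. Both flags are readings of the same gene in the same pool, so they are not independent. Wild-type pool 2 was also the highest of its group on both probes, at 5.49 and 5.35.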

How the results depend on the processing

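The Krt19 difference lay between 1.01 and 1.24 over 19 alternatives. Members called (2 as reported) were 1 with median scaling, no scaling, no filter on dim probes or the deposited table, each time Krt19, 0 with normexp correction (2 at an unadjusted p under 0.05), 5 with the replicate block and 1 to 2 with a pool left out. Related epithelial and mesenchymal genes called (3 of 71) were 1 with median scaling, no scaling or no filter, 0 with normexp correction (4 at an unadjusted p under 0.05), 8 with slide as a block (7 higher, 1 lower), 9 with the replicate block and 1 to 3 with a pool left out. Markers of other tissues called (4 of 37) were 1 with median scaling, no scaling or no filter, 0 with normexp correction (1 at an unadjusted p under 0.05), 7 with the replicate block and 0 to 2 with a pool left out. The slide difference was called for 0 members, and for 1 (Grhl2) in the deposited table, and the interaction for 0 in every fit run. No replicate block was fitted for these, since numbers are nested in slides. The percentile over spots kept all 5 counts. The causes were not tested. Trp63 changed sign with the mean of its probes and Cldn6 with median or no scaling. The dim probes of Trp63 and Grhl2 limit those genes, and 4 pools per group limit every call.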
